A study of Mus musculus with 14 samples.

Results

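Long H3K27me3 domains of mouse regulatory T cells (Tregs) were rebuilt from the CUT&Tag peak lists of this series. They were chosen by their measured span and by the presence of peaks, and so by H3K27me3 itself. Peaks of 3 H3K27me3 libraries (control 2, knockout 1 and knockout 2) on chromosomes 1 to 19 were joined where 5000 bp or less separated them. A joined domain counted as long when it spanned 20000 bp or more and overlapped a peak in each of the 3 lists. This gave 1586 long domains of 15035 joined domains, or 10.5%. Of the joined domains, 7732 had a peak in all 3 lists, and the 6146 of these under the span threshold are called shorter domains here. All coordinates are 1-based on mm39, the mouse build named in the submitters' processing notes.

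H3K27me3, the trimethylated form of lysine 27 of histone H3, is written by Polycomb repressive complex 2 and marks silent developmental genes, often as broad blocks rather than as point-like peaks. H3K27ac, acetylation of the same residue, marks active promoters and enhancers, and a single histone tail cannot carry both marks at that lysine. In Tregs, the Foxp3-expressing T cells that restrain immune responses, the Polycomb enzyme Ezh2 is known to be needed for stable function. CUT&Tag maps a mark by tethering a transposase to the antibody that binds it, so that DNA near the mark is cut and tagged.

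The study compared Tregs from chimeras labelled WT and KO, which the protocol names as Foxp3YFPcre;wt and Foxp3YFP-Slc31a1△;wt mice. The deleted gene, Slc31a1, codes for the copper transporter CTR1, which carries copper into cells. In this allele the Foxp3 promoter drives YFP and Cre, so the deletion is directed to cells that express Foxp3, and the control allele carries the same YFP and Cre. What ";wt" stands for, and the animals' age, sex and strain, are not given in the sources used here. Cells were FACS-sorted and 140000 were used per sample. Of 14 samples, 10 have a peak list: 3 control and 3 knockout samples for H3K27ac, and 2 control and 2 knockout samples for H3K27me3. The 4 IgG samples (3 control, 1 knockout) were not analysed here. Chimeras numbered 2 to 4 gave the H3K27ac samples (replicates 1 to 3), and chimeras 1 and 2 gave the H3K27me3 samples. No label states that each sample came from a separate animal, so p-values measure only the spread between these samples. Genes of mm39 were not matched to the lists, so no domain is given a gene, Treg markers were not checked, and no sequence is shown.

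The lists differed in length and threshold. On chromosomes 1 to 19 the H3K27me3 lists held 43253 peaks for control 2, 36053 for knockout 1 and 56634 for knockout 2, with every −log10 p above 9. The list of control 1 held 7507 peaks with −log10 p between 2.02 and 7.21, and the rule did not use it. The H3K27ac lists held 27410 to 31337 peaks in controls and 20900 to 27651 in knockouts. The background library behind each H3K27ac list, read back from the lists' fold enrichments and p-values, was 13.1 to 16.1 fragments per kb in controls and 20.6 to 20.7 in knockouts, so background depth and genotype cannot be told apart in the H3K27ac comparisons. The number of reads per library is unknown, and the joining rule used 2 knockout lists and 1 control list, so membership is not even-handed between genotypes.

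The long domains together spanned 60.4 Mb, 2.52% of the 2393 Mb between the first and last peaks of the 19 chromosomes. Their median span was 31.1 kb (quartiles 24.2 and 44.1 kb). Of the 1586 domains, 845 spanned at least 30 kb, 303 at least 50 kb, 27 at least 100 kb and 2 at least 200 kb. The shorter domains had a median span of 6.95 kb. The spans formed one continuous distribution through the threshold, as the histogram of spans shows. The domains nearest above the threshold spanned 20009, 20015 and 20037 bp, and those nearest below it 19995, 19992 and 19988 bp. A further 13 joined domains reached the span without a peak in every list. Knockout 1 had no peak in 11 of them and control 2 had none in the other 2.

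**Figure D1:**
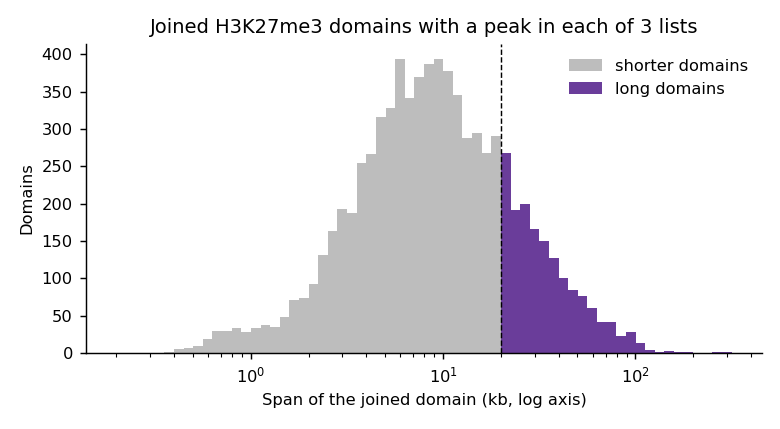
Spans of the 7732 joined domains with a peak in each of the 3 lists (x, kb on a log axis; y, number of domains per bar). The dashed line marks 20 kb; the purple bars right of it are the 1586 long domains, with no gap in the distribution at the line.

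The 10 longest domains spanned from 132.0 to 292.7 kb. The longest, chr11:95985105-96277803, covered 292699 bp and held 129 peaks of control 2, 55 of knockout 1 and 149 of knockout 2. The second, chr15:102786118-103060019, covered 273902 bp and held 113, 71 and 123 peaks in the same order. The next were chr15:100817019-101001552 (184534 bp) and chr2:74486317-74655415 (169099 bp). After them came chr13:48775280-48939549, chr9:107237582-107389622, chr11:85715778-85866406, chr18:38723127-38872135, chr1:74863595-75001778 and chr2:151865474-151997518. These blocks were therefore mosaics of many narrow peaks, not single wide calls.

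In each of the 4 longest domains the longest stretch without a peak was longer in knockout 1 than in control 2 or knockout 2. The lists were closest in chr15:100817019-101001552, at 11.5 kb in knockout 1, 9.27 kb in control 2 and 5.06 kb in knockout 2. In chr15:102786118-103060019 the longest such stretch of knockout 1 was 88.4 kb, against 12.3 kb in control 2 and 3.48 kb in knockout 2. Between 25 and 50% of the way along that domain knockout 1 covered 0%, control 2 17.8% and knockout 2 39.9%. In chr2:74486317-74655415 knockout 1 had no peak over the first 70.0 kb, where the first 25% of the domain was 25.8% covered in control 2 and 41.4% in knockout 2. From 75 to 100% of the way knockout 1 covered 37.9%, control 2 28.3% and knockout 2 56.1%. In chr11:95985105-96277803 the longest bare stretch of knockout 1 was 59.8 kb, against 23.4 kb in control 2 and 4.43 kb in knockout 2, and the stretch of control 2 lay within that of knockout 1. The pattern held in some but not all of the other domains among the 10 longest. In chr11:85715778-85866406 the longest bare stretch was 20.5 kb in knockout 1, 12.8 kb in control 2 and 5.84 kb in knockout 2. In that order it was 19.6, 6.5 and 4.48 kb in chr18:38723127-38872135 and 12.5, 8.11 and 3.31 kb in chr1:74863595-75001778. In chr13:48775280-48939549 the longest bare stretch was 20.8 kb in control 2, 13.3 kb in knockout 1 and 4.86 kb in knockout 2. In chr9:107237582-107389622 it was 13.4, 13 and 4.37 kb in the same order. In chr2:151865474-151997518 knockout 1 was only just the longest, at 8.23 kb against 7.88 kb in control 2 and 5.94 kb in knockout 2. In the 4 longest domains the 2 knockout libraries thus differed from each other with control 2 between them, and genotype did not order the lists there.

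**Figure D2:**
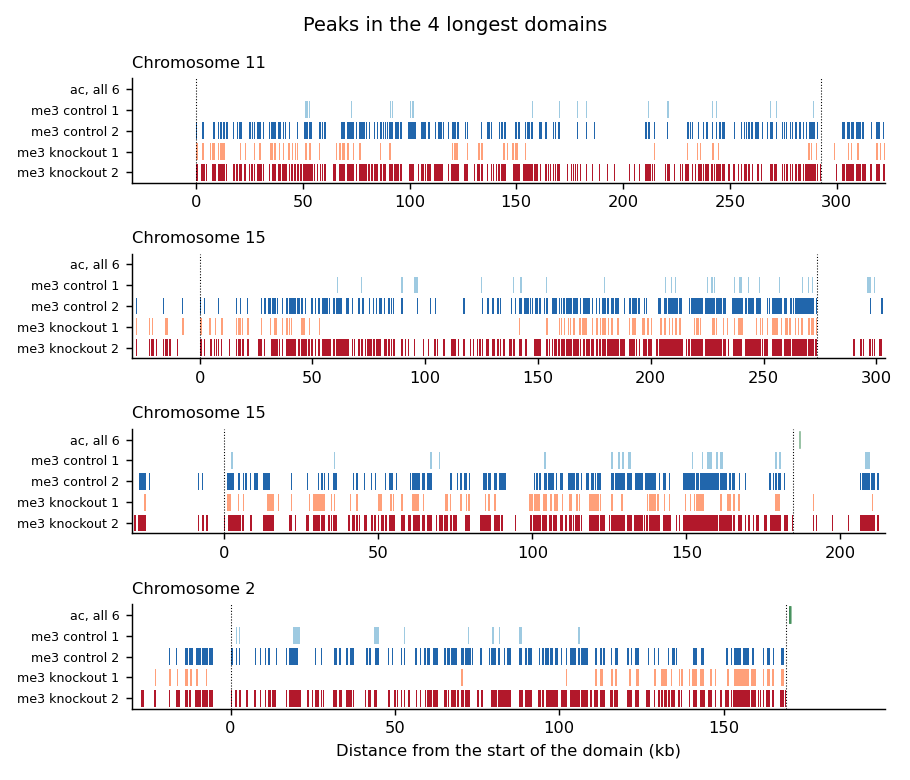
Peaks in the 4 longest domains (x, distance from the start of the domain in kb; rows, the 4 H3K27me3 lists and the 6 H3K27ac lists overlaid). Dotted lines mark the domain edges; knockout 1 leaves wide bare stretches, up to 88.4 kb, and no H3K27ac peak lies between the edges.

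Across all long domains, peaks covered 34.4% of the span in control 2, 25.6% in knockout 1 and 51.2% in knockout 2. The median share per domain was 33.6%, 24.9% and 50.0% in that order. Knockout 2 had the highest share in 1558 domains, control 2 in 20 and knockout 1 in 8. In 1105 domains (69.7%) the order was knockout 1, then control 2, then knockout 2, so control 2 lay between the 2 knockout lists in most of them. This order is that of the lists' lengths, 30.4, 40.1 and 62.0 Mb under peaks. The rule used these values, so they describe the members and carry no test.

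**Figure D3:**
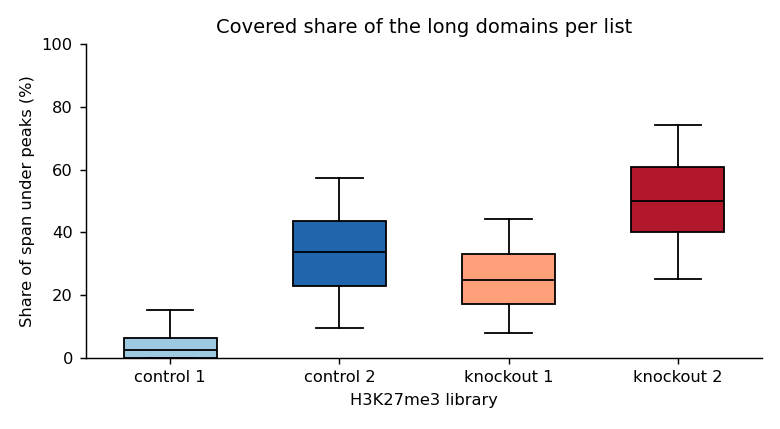
Share of each long domain's span under peaks (y, percent) for the 4 H3K27me3 lists (x); the line is the median over 1586 domains, the box the quartiles and the whiskers the 5th and 95th percentiles. Control 2, with a median of 33.6%, lies between knockout 1 (24.9%) and knockout 2 (50.0%), and control 1 is lowest at 2.59%.

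Base by base, the lists overlapped in part. Of the 60.4 Mb, 42.6% lay under no peak, 19.5% under a peak of 1 list, 22.1% under peaks of 2 lists and 15.8% under all 3. Knockout 1, which covered 25.6%, limits how much all 3 could share. Across the 1586 domains, the covered share of control 2 followed that of knockout 2 with a Spearman rho of 0.861 and that of knockout 1 with 0.476, and the knockouts gave 0.597 between them. Control 2 and knockout 2 both come from chimeras numbered 2 in their genotype, and all 3 shares depend on the same spans. Control 1 and knockout 1, both from chimeras numbered 1, gave a rho of 0.234. Control 1 gave 0.675 with control 2 and 0.617 with knockout 2. These correlations are descriptions over domains of a few libraries, and a role of the chimera number was not tested.

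A minority of the domains were long in every list alone. Joined by itself at the same distance, the list of knockout 2 gave a domain of 20 kb or more in 1375 of the 1586 long domains (86.7%), control 2 in 810 (51.1%) and knockout 1 in 582 (36.7%). All 3 lists did so in 432 domains, 2 lists in 468, 1 list in 535 and none in 151. The last 151 reached the span only through joining. At least 50% of the span was covered in 794 domains by knockout 2, in 222 by control 2 and in 26 by knockout 1.

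The domain with the highest lowest-of-3 share, chr8:23632911-23658556 (25646 bp), was covered 61.5% by control 2, 61.9% by knockout 1 and 75.8% by knockout 2. The next, chr10:60624867-60650725, was covered 59.2%, 57.6% and 85.6%. The other 3 of the top 5 were chr9:43100463-43125870, chr16:8225981-8249390 and chr2:36084288-36124718, which spanned 25408, 23410 and 40431 bp and had lowest shares of 57.4%, 55.5% and 54.4%. At the other end, control 2 covered under 5% of 22 domains and knockout 1 of 28, while knockout 2 covered at least 5% of every domain.

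Domain edges were set mostly by the longest list. Of 3172 edges, knockout 2 set 2116 (66.7%), control 2 set 559 and knockout 1 set 554. The outermost peaks of all 3 lists lay within 1 kb of the edge at 786 edges (24.8%) and within 5 kb at 2246 (70.8%). Both edges met the 1 kb limit in 89 domains. Coverage was lower at the edges than in the middle: from the outer 10% of the span on each side to the central zone it went from 26.5% to 38.9% in control 2, from 22.7% to 26.9% in knockout 1 and from 46.8% to 54.6% in knockout 2.

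In the 3 lists that the rule used, peaks inside the long domains were somewhat wider and ranked somewhat higher by p than the others of the same list. The median width was 608 bp inside against 520 bp elsewhere in control 2, 638 against 582 bp in knockout 1 and 740 against 565 bp in knockout 2. The median percentile of the authors' −log10 p within the list was 53.7 inside and 46.5 elsewhere in control 2, 51.7 and 47.0 in knockout 1, and 56.6 and 44.3 in knockout 2. In control 1, which the rule did not use, the median width was 506 bp inside and 515 bp elsewhere, and the percentile was 44.5 in both. The authors' median fold enrichment was 5.53 inside and 5.49 elsewhere in control 2, 5.49 and 5.62 in knockout 1, and 5.42 and 5.27 in knockout 2. The strongest peaks were not concentrated there: of the 100 with the highest −log10 p, 40 lay inside in control 2, 44 in knockout 1 and 22 in knockout 2, although the domains held 48.1%, 49.1% and 43.5% of each list's peaks.

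The list of control 1, which the rule did not use, also placed its peaks in the long domains. It had a peak in 1117 of 1586 long domains (70.4%, Wilson 95% interval 68.1 to 72.6), in 27.8% of the shorter domains (26.7 to 28.9) and in 3.74% of the joined domains that lacked a peak in 1 or 2 lists. Intervals cover counting over domains only. Longer domains offer more bases to hit, and per 100 kb of span control 1 had 6.65 peaks in long domains, 6.0 in shorter ones and 3.34 in those lacking a list, against 0.314 over the genome. Its 4018 peaks inside were 53.5% of its list. The share of domains with a control 1 peak was 60.6% at 20 to 30 kb (n = 741), 72.5% at 30 to 50 kb (n = 542), 90.2% at 50 to 100 kb (n = 276) and 96.3% above 100 kb (n = 27). Control 1 covered 4.37% of the long-domain span, more in the middle (5.19%) than in the outer zone (2.69%), as in the other lists.

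Long domains occurred in groups along the chromosomes. The median gap between neighbouring long domains was 403 kb, and 314 of 1567 gaps (20.04%) were 50 kb or less. With gaps of up to 50 kb bridged, 535 domains (33.7%) fell into 221 groups, of which 58 held 3 or more domains and 9 held 5 or more. With 100 kb bridged, 723 domains (45.6%) fell into 279 groups. The more numerous shorter domains lay closer together, with a median gap of 135 kb and 30.05% of gaps at 50 kb or less. Density ranged from 0.339 long domains per Mb on chromosome 10 to 1.00 on chromosome 11, around a mean of 0.663. Spacing follows partly from the rule, since a wider joining distance turns close neighbours into 1 domain.

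The largest group, chr11:101662098-102040809, held 6 long domains that filled 70.3% of 378.7 kb, and no H3K27ac library had a peak in it. The next, chr19:44572557-44911259, held 5 domains filling 87.3% of 338.7 kb, again without H3K27ac in any library. Groups of 5 on chr12:108264124-108529368 and chr16:90880374-91140488 were also free of H3K27ac peaks. H3K27ac did occur in the group chr1:75237097-75495297, with 1153, 799 and 1397 bases under peaks in controls and 1502, 449 and 320 in knockouts, values that overlap between genotypes. It also occurred in the group of 5 on chr4:138057271-138294654, with 924, 514 and 332 bases by control and 750, 0 and 0 by knockout, again overlapping. All of these counts include the gaps between the domains of a group.

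H3K27ac was nearly absent inside the long domains. Of 1586 domains, 1567 had no base under an H3K27ac peak in any of the 6 libraries, and 19 (1.20%) had some in at least 1. H3K27ac peaks covered 0.0182% ± 0.000298 (SD, n = 3) of the span in controls and 0.00791% ± 0.00352 (SD, n = 3) in knockouts, against 1.76% and 1.73% of the genome. None of the 10 longest domains held any. A peak list names only regions above its threshold, so H3K27ac below the threshold was not detectable here. The shorter domains were also nearly bare: covered percent inside differed by -0.00353 points between long and shorter domains (long minus shorter, lower in 4 of 6 libraries, exact sign-flip permutation test, two-sided p = 0.28125, smallest possible 0.031). By library this difference was -0.0134, -0.00430 and -0.00992 points in controls and -0.000704, 0.00329 and 0.00382 in knockouts. The mean difference over the 6 libraries turned to 0.0148 points with a joining distance of 10 kb (p = 0.031 by the same exact test, n = 6).

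Bases under H3K27ac peaks inside the long domains numbered 11139, 11088 and 10805 by control and 6927, 4734 and 2674 by knockout. The groups did not overlap, with means of 11011 ± 180 (SD, n = 3) and 4778 ± 2127 (SD, n = 3). The difference of -6232 bases (knockout minus control) gave p = 0.1 in a two-sided exact permutation test, the smallest that 3 against 3 allows, so it could not pass 0.05. Domains contributing any base numbered 12, 14 and 15 per control and 7, 6 and 4 per knockout.

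The size of this difference depended on which H3K27me3 lists defined the domains. With domains of control 2 alone (861 domains, chosen after seeing the data), the controls had 1432, 3307 and 2442 bases and the knockouts 2642, 1870 and 742. These values overlap, and the difference was -642 bases (exact permutation test, n = 3 per group, p = 0.5). Without H3K27me3 knockout 2 it was -982 bases (1164 domains, exact p = 0.3), and without H3K27me3 knockout 1 it was -6232 bases (1511 domains, exact p = 0.1). Without H3K27me3 control 2, the only control list joined, it was -6239 bases (1495 domains, exact p = 0.1). Most of the difference was therefore no longer inside the domains once the H3K27me3 knockout 2 list was left out, and it stayed when either other list was. In the shorter domains, joined from the same 3 lists, the controls had 15529, 11066 and 13583 bases and the knockouts 5945, 2221 and 296.

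**Figure D4:**
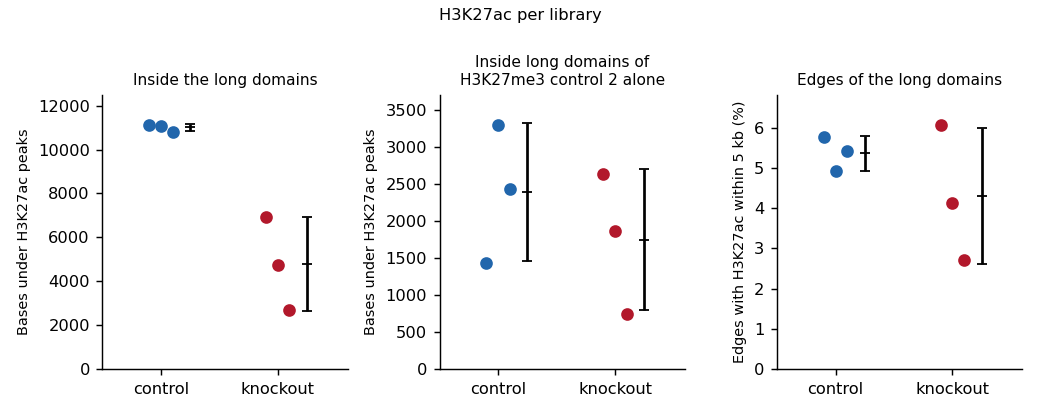
H3K27ac per library, points for 3 controls and 3 knockouts with mean ± SD beside them. Left, bases under H3K27ac peaks inside the 1586 long domains, where the groups do not overlap; middle, the same inside the 861 domains of H3K27me3 control 2 alone, where they do; right, percent of the 3172 edges with an H3K27ac peak within 5 kb outside.

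Of the 19 domains with H3K27ac inside, 3 had it in all 6 libraries, 8 in both genotypes, 11 in controls only and none in knockouts only. Of the 11, 2 had it in all 3 controls, and the others had it in only 1 or 2 libraries. The share of all 7732 domains with H3K27ac in 1 genotype only was not counted, so the 11 have no background to be read against. Shorter domains with an H3K27ac peak inside numbered 21, 15 and 19 by control and 10, 4 and 1 by knockout. The lean to controls was thus not particular to long domains. The 3 found in all 6 were chr5:121044736-121067522, chr9:117721495-117767405 and chr13:95660782-95686984. In chr9:117721495-117767405, 862, 782 and 632 bases lay under H3K27ac peaks in controls and 1233, 717 and 742 in knockouts, with overlap between genotypes. The domain with the highest mean, chr14:63426388-63516079 (89692 bp), had 2163, 1658 and 991 bases in controls and 900, 0 and 0 in knockouts. Next came chr17:18004405-18054254, with 0, 1814 and 1211 bases in controls and 1409, 1153 and 0 in knockouts. The fifth, chr9:75496895-75533637, had 948, 1200 and 1406 bases in controls and 977, 381 and 0 in knockouts. The genotypes overlapped in chr17 and in the chr9 domain named last. In chr14 the lowest control, at 991 bases, was close to the highest knockout, at 900. These domains were picked by their H3K27ac values.

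Just 2 domains had H3K27ac inside in all 3 controls and in no knockout, where this pattern held for 0.0776% of all 7732 domains of any span. They were named after their values were seen. In chr16:90116064-90137895 the controls had 1944, 743 and 983 bases and the knockouts 0. H3K27me3 covered 4.57% of this domain in control 2, 25.5% in knockout 1 and 41.7% in knockout 2. In chr9:54578098-54610621 the controls had 788, 257 and 465 bases and the knockouts 0, with H3K27me3 cover of 18.96%, 21.0% and 48.8%. The opposite pattern occurred in 0 of the 7732 domains of any span.

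H3K27ac was more frequent beside long domains than beside shorter ones. A peak lay within 5 kb outside 5.77%, 4.92% and 5.42% of the 3172 long-domain edges in controls and 6.08%, 4.13% and 2.71% in knockouts. The corresponding values for the 12292 edges of shorter domains were 3.16%, 2.60% and 2.83%, and 3.14%, 2.14% and 1.47%. Long-domain edges exceeded shorter ones by 2.28 percentage points ± 0.603 (SD, n = 6), in 6 of 6 libraries (two-sided exact sign-flip permutation test, p = 0.031, the smallest possible). The 6 libraries share the same domains, so this p measures the libraries, not the domains. The size of the difference depended on the domain definition and the window: it was 0.846 points with joining at 2 kb, 1.22 without H3K27me3 knockout 2, 1.14 with domains of H3K27me3 control 2 alone, 0.416 for peaks within 2 kb of the edge and 3.81 within 10 kb. With any H3K27ac library left out it was 2.15 to 2.49 points, and 5 libraries cannot go below p = 0.0625 in this exact test.

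Between genotypes, the percentage of long-domain edges with H3K27ac overlapped. The control mean was 5.37% ± 0.428 and the knockout mean 4.31% ± 1.69 (mean ± SD of 3 libraries per genotype, exact permutation p = 0.4), and H3K27ac knockout 1 was the highest of the 6 libraries while H3K27ac knockout 3 was the lowest. In the 10 kb flanks, 29.9 Mb in all, H3K27ac peaks took up 348359 ± 34069 bases of the controls and 313708 ± 103551 of the knockouts (mean ± SD of 3 libraries per genotype, exact permutation p = 0.8). Leaving out H3K27ac knockout 3 turned the sign of that difference from -34651 to 19777 bases.

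H3K27ac cover climbed with distance from the edge. In the first 1 kb outside it was 0.0957% in controls and 0.0711% in knockouts, from 2 to 5 kb 1.31% and 1.13%, and from 40 to 50 kb 2.45% and 2.29%, above the genome value of 1.76% and 1.73%. Outside the shorter domains it was 0.0349% and 0.0187% in the first 1 kb and 1.83% and 1.72% from 40 to 50 kb. The median distance from an edge to the nearest H3K27ac peak was 87.8 to 143 kb for long domains over the 6 libraries and 124 to 187 kb for shorter ones. Edges with H3K27ac within 5 kb in any library numbered 234 (7.38%), and 79 had it in all 6. No domain had it at both edges in all 6 libraries.

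**Figure D5:**
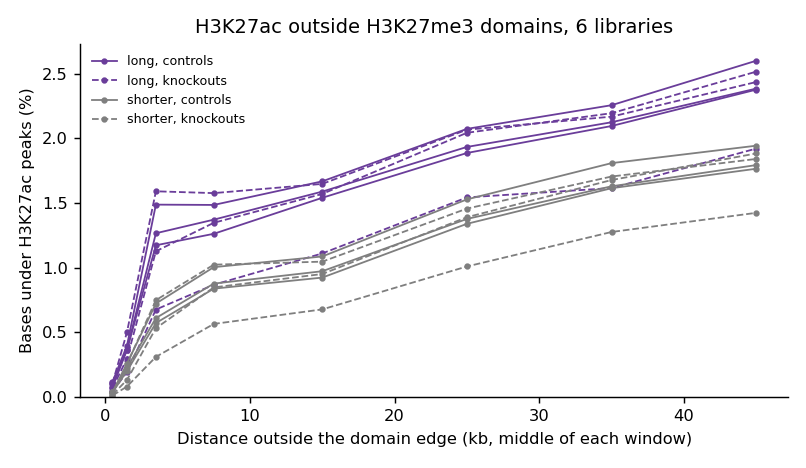
Bases under H3K27ac peaks (y, percent) by distance outside the domain edge (x, kb, middle of each window), 1 line per library, solid for controls and dashed for knockouts. Cover is lowest in the first 1 kb (control means 0.0957% for long and 0.0349% for shorter domains) and is higher beside long than beside shorter domains at each distance.

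At 3 edges, H3K27ac lay within 5 kb in all 3 controls and in no knockout, a pattern held by 0.0776% of the 15464 edges of domains of any span. These edges were named after their values were seen. Left of chr2:69939035-69973120, controls had 2521, 1507 and 2147 bases under H3K27ac peaks within 5 kb and knockouts 0, and the nearest knockout peaks were 13.2 to 13.8 kb away. Inside this domain H3K27me3 covered 0.763% in control 2, 22.7% in knockout 1 and 42.5% in knockout 2. Left of chr15:99551103-99595479, controls had 1077, 1031 and 1055 bases, with their nearest peaks at 2.64 to 3.42 kb. The nearest peaks of H3K27ac knockouts 1 and 3 were at 6.26 and 6.61 kb, just past the 5 kb window, and that of knockout 2 was at 178 kb. H3K27me3 covered 47.8% of that domain in control 2, 26.3% in knockout 1 and 61.1% in knockout 2. Right of chr11:108747914-108789674, controls had 483, 444 and 356 bases, and the nearest knockout peaks were at 10.6, 22.7 and 22.7 kb. H3K27me3 covered 34.5% of that domain in control 2, 15.7% in knockout 1 and 40.03% in knockout 2. Control 2 had the lowest cover of the 3 lists at the chr2 domain and lay between the knockouts at the other 2. No long-domain edge had H3K27ac in all 3 knockouts and no control, a pattern at 0.0129% of the 15464 edges.

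Among 10 kb bins of H3K27ac tested with limma over the whole genome (19295 bins, bases under peaks on the log2(bases + 100) scale), 2.25% were lower in knockouts, 0.58% higher, and 2.83% changed in either direction at an adjusted p below 0.05. Of 476 tested bins that touched a long domain or its 10 kb flanks, 7 were lower (1.47%) and 1 was higher (0.21%). Without adjustment, 36 of these 476 bins were lower and 11 higher at a limma p below 0.05, against 2094 and 1155 of all 19295 bins. For the alternative fits given below, counts over all bins are not given. Tested bins had a covered base in at least 3 libraries, so a bin at 0 in all knockouts entered only through its controls. Adjusted limma calls were 4 lower and 2 higher with quantile normalization, and 8 and 3 when the H3K27ac lists were cut to the same length. With replicate number fitted as a block they were 0 and 0, with 43 lower and 11 higher at an unadjusted p below 0.05. The median log2 change was -0.22 in these bins and -0.05 in all bins. Of the 160 bins that touched a domain itself, 2 were lower and none was higher by limma, with 11 and 5 at an unadjusted p below 0.05.

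The bin with the largest change was chr2:69930001-69940000, at the left edge of the chr2:69939035-69973120 domain. Controls had 3414, 2859 and 3155 bases under H3K27ac peaks and knockouts 0 (log2 change -5.04, SE 0.442, limma adjusted p = 0.0128). Most of that bin lies outside the domain, within which the controls had 234, 0 and 784 bases. The neighbouring bin chr2:69920001-69930000 had 8176, 7438 and 8805 bases in controls and 5476, 5239 and 4857 in knockouts (log2 change -0.66, limma adjusted p = 0.0382). The other bin that touched a domain, chr16:90120001-90130000, had 1553, 743 and 983 bases in controls and 0 in knockouts (log2 change -3.54, limma adjusted p = 0.0340). In the flank of the 117488 bp domain chr7:49264576-49382063, bin chr7:49250001-49260000 had 2164, 2245 and 2484 bases in controls and 249, 0 and 0 in knockouts (log2 change -4.00, limma adjusted p = 0.0329). The other 3 lower bins were chr11:94280001-94290000, chr11:74460001-74470000 and chr3:94750001-94760000, with log2 changes of -3.01, -2.95 and -1.75. The single higher bin, chr14:118410001-118420000, lay beside chr14:118425135-118496930 and had 666, 617 and 822 bases in controls and 2202, 3011 and 1953 in knockouts (log2 change 1.6, limma adjusted p = 0.0230). Fitted changes of bins at 0 in all knockouts depend on the pseudocount and are no bounds. These bins were chr2:69930001-69940000, chr16:90120001-90130000, chr11:94280001-94290000 and chr11:74460001-74470000. They passed the filter of at least 3 covered libraries only through the controls, so their adjusted p-values are no support by themselves. With no filter their limma adjusted p-values were 0.00943, 0.0515, 0.0777 and 0.0802. Bin chr7:49250001-49260000, with 1 covered knockout, also could not have met the filter without its controls. Its adjusted p is thus no support by itself either, and with no filter it was 0.0364 by limma. Without H3K27ac control 1, 2 or 3 no bin was called in either direction by limma, with 18 to 22 lower and 8 to 14 higher at an unadjusted p below 0.05. Without H3K27ac knockout 1, 34 were lower, and without H3K27ac knockout 2 or 3, 1 was. With a pseudocount of 10 bases limma called none lower, with 33 at an unadjusted p below 0.05. Across the alternative fits that included it, bin chr2:69930001-69940000 kept its limma call in 12 of 17. Calls were kept in 8 of 20 for chr2:69920001-69930000, 7 of 19 for the chr7 bin and 6 of 17 for the chr16 bin. They were kept in 6 of 17 for chr11:94280001-94290000, 5 of 16 for chr11:74460001-74470000, 5 of 20 for chr3 and 8 of 20 for chr14. With lists of equal length the chr14 bin had a limma adjusted p of 0.195.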

How the data were processed

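CUT&Tag for H3K27ac and H3K27me3 was deposited as 1 peak list per library. Per the submitters' processing notes, the tools were Bowtie2 2.2.4, deepTools 3.5.1, MACS2, ChIPseeker 1.30.3 and HOMER 4.11, on mm39. Peak-calling settings and the background sample are not given in the sources used here. The deposited lists hold, per peak, a score, a fold enrichment (a linear ratio), and −log10 p and −log10 q values made by the authors.

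Peaks were joined at 5000 bp (Python 3.11.15, pandas 2.3.3), and an overlap of 1 bp counted. Members and lists were chosen with earlier results of these data known. Single values were compared with exact permutation tests (scipy 1.17.1). H3K27ac bases per 10 kb bin were fitted with limma 3.58.1 (R 4.3.3) on the log2(bases + 100) scale after subtracting each library's median over bins that all libraries cover, for bins covered in at least 3 libraries, with Benjamini-Hochberg adjustment over all bins and a threshold of 0.05. The code was tested on simulated data.

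Named were the 10 longest domains, the 5 with the highest lowest-of-3 cover, the 5 with most H3K27ac, the 3 nearest on each side of the span threshold and up to 10 called bins per direction. Alternatives were other joining distances, spans, thresholds, normalizations, filters, pseudocounts, replicate blocks and left-out libraries. Domain sets from other H3K27me3 lists, control 1 under other domain definitions, bins of chromosomes 1 to 19 only, and left-out libraries on fixed bins were chosen after seeing the data. Groups of domains were named by number of domains.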

Additional observations from a re-analysis of the deposited data

How the results depend on the processing

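The number of long domains was 829 with a joining distance of 2 kb, and 3457, 845 and 303 with minimum spans of 10, 30 and 50 kb, against 1586 as reported; leaving out an H3K27me3 list gave 1164 to 1511. The share of domains with a control 1 peak was 83.0% with joining at 2 kb, 61.5% at 10 kb and 90.8% for spans of at least 50 kb. H3K27ac percent inside, long minus shorter, was -0.0120 with joining at 2 kb, 0.0148 at 10 kb, -0.00834 without H3K27me3 knockout 1 and -0.0117 with domains of control 2 alone, each at the exact p = 0.031 (n = 6); with an H3K27ac library left out it ranged from -0.00500 to -0.00156. The difference in edges with H3K27ac, long minus shorter, was 0.846 points with joining at 2 kb, 1.22 without H3K27me3 knockout 2, 1.14 with domains of control 2 alone, 0.416 within 2 kb and 3.81 within 10 kb, each at the exact p = 0.031 (n = 6), and 2.15 to 2.49 with a library left out. Between genotypes, leaving out 1 library gave -7307 to -5180 bases inside, -83287 to 19777 in the flanks and -1.95 to -0.26 points at the edges. Inside bases differed by -419 with joining at 2 kb, -11989 at 10 kb, -1779 for spans of at least 50 kb and -3920 with H3K27ac peaks of −log10 q of at least 10. The cause of these shifts was not tested.

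Called bins (lower, higher) by limma, against 7 and 1, numbered 0 and 1 at a pseudocount of 10 bases (33 and 9 unadjusted), 11 and 1 at 1000, 3 and 1 with no filter, 4 and 2 with quantile normalization, 8 and 3 with lists of equal length, and 8 and 1 without centring. With a library left out they ranged from 0 to 34 lower and from 0 to 1 higher; on fixed bins the lower calls ranged from 0 to 19. Chromosomes 1 to 19 alone gave 7 and 1. Counts over all bins under these alternatives are not given.

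The replicate block gave 0 lower and 0 higher bins by limma, with 43 and 11 at an unadjusted p below 0.05. Deviations of same-numbered libraries correlated at 0.246, 0.0530 and 0.0102, and the first of these was the highest of any control and knockout pair. These values do not settle whether the shared numbers pair the samples. With the replicate block, the exact sign-flip p was 0.25 inside, 1 in the flanks and 0.5 at the edges (n = 3 pairs), and the differences stayed at -6232 bases, -34651 bases and -1.06 points.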
